A study of Drosophila melanogaster with 2 samples.

Results

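The middle-signal distal peaks are the regions that fd3F chromatin immunoprecipitation enriched less than the reproducible peaks, away from gene starts. They were chosen by 2 measured and annotated properties: a pooled signal rank below the reproducible peaks and down to 10000, and a summit more than 1000 bp from every protein-coding start site and outside coding sequence. The choice kept 3317 of the 6083 peaks in that rank band, out of 30000 pooled peaks. The embryos were whole Drosophila melanogaster embryos aged 8 to 18 h from a stable transgenic line in which green fluorescent protein (GFP) was joined to the C-terminus of fd3F, and an anti-GFP antibody pulled down the chromatin. The 2 biological replicates, numbered 1 and 3, form the single group fd3F-GFP and both carried the same transgene, so no contrast between conditions exists. The promoter that drove the fusion, and whether untagged fd3F was also present, are not stated in the labels. Whole embryos mix all tissues, so a peak cannot be assigned to a cell type. The lists give no read counts, so sequencing depth is unknown and no floor on detection can be set.

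fd3F is a forkhead transcription factor. Forkhead proteins bind DNA through a winged-helix domain that reads a short AT-rich element, and fd3F is known from fly genetics to act in chordotonal neurons, the stretch receptors of the insect nervous system, where it switches on genes for the motile part of their sensory cilium. Enhancers of developmental genes in Drosophila often lie in introns or between genes, at a distance from the promoter they act on. Peaks away from promoters can therefore be compared with other peaks for sequence content, position and neighbouring genes.

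The forkhead element was searched on both strands as the 8 words made of A or G, then C or T, then AAA, then C or T, and a last A. The word GTAAACA, one of the 8, was also scored by itself as a stricter form. The sequences printed here are centred on the summit, with 50 bases to each side, read 5′ to 3′ on the plus strand of dm6, with every forkhead match in capitals. They are shown because they span the set, from high-ranked peaks to the peaks with the most matches, and because 3 of them hold none. A match describes the letters and does not show that a factor binds them.
kel intron, rank 3923 (chr2L:18136735-18136835): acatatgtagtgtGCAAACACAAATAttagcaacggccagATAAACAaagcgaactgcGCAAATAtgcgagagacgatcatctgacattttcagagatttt
near CheA75a, rank 3922 (chr3L:18235909-18236009): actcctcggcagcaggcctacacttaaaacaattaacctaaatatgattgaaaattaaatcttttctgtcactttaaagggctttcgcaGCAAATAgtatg
near PpV, rank 3947 (chrX:6375785-6375885): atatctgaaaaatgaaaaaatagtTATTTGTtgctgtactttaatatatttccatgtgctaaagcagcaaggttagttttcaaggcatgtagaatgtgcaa
CG32369 intron near Clk, rank 3935 (chr3L:7783467-7783567): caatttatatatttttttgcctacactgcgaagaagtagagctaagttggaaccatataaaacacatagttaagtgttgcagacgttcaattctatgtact
Nedd4 intron, rank 3938 (chr3L:17539040-17539140): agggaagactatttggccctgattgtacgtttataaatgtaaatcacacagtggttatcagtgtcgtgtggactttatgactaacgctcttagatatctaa
Sxl intron, rank 3943 (chrX:7086702-7086802): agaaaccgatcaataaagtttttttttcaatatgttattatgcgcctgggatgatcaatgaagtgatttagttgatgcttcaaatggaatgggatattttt
smash intron, rank 5023 (chr3R:4685387-4685487): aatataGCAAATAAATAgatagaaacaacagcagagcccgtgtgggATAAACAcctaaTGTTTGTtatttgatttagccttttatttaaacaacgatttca
Ptp10D intron, rank 6897 (chrX:11660609-11660709): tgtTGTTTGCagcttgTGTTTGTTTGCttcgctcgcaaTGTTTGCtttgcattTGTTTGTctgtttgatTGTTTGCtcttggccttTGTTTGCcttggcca
CG42238 intron, rank 9882 (chr2L:21037863-21037963): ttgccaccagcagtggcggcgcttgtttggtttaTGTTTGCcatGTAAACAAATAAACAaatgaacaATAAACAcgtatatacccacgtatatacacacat
gukh intron, rank 5051 (chr3R:18998066-18998166): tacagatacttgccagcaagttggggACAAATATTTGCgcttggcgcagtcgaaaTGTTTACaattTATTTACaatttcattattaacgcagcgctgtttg

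Over the wider window used for all counts, 100 bp to each side of the summit, the peaks in introns of smash, Ptp10D and CG42238 held 7 matches each, the most of any peak in the set. The peaks in CG13917 (rank 4971) and gukh (rank 5051) held 6. smash encodes a LIM-domain protein of cell junctions, Ptp10D a receptor tyrosine phosphatase that takes part in axon guidance, and gukh a scaffold protein of synapses. The Ptp10D window is a row of short repeats of the same word, and all of its matches lie within 50 bp of the summit. The Ptp10D peak had a signal of 61.8 in replicate 1 and overlapped no peak of replicate 3, and the CG42238 peak ranked 11511 and 17108 in the replicate lists. The other 3 were among the 10000 highest of both lists, with ranks in replicates 1 and 3 of 4630 and 5633 at smash, 5378 and 5291 at CG13917, and 3811 and 8017 at gukh.

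Signal chose these regions, so it is given as a description. The pooled signal, the score deposited for each peak, ran from 55.5 to 114.7, a 2.07-fold range, with a median of 71.3. The deposited q-values were at most 0.05 for all 3317, where 10181 pooled peaks meet that limit. The −log10 q-values ran from 1.33 to 3.42. The 3 distal peaks just above the band had signals of 114.89 (intron of mub), 114.83 (Spn) and 114.82 (Spn28Db), and the first 3 inside had 114.72 (Aldh-III), 114.65 (crp) and 114.64 (CheA75a). At the lower end the last 3 inside had 55.482 (Dscam1), 55.482 (Hnf4) and 55.462 (CG13917), against 55.460 (CG9932), 55.454 (msi) and 55.452 (trv) just outside. Both ends are cuts through a continuous range.

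The 10 peaks of highest signal lay at or near Aldh-III (an aldehyde dehydrogenase gene), crp (a basic helix-loop-helix factor), CheA75a (of a chemosensory protein family), kel (an actin-binding protein of ring canals), SIFaR (a neuropeptide receptor), Clk (a core circadian factor), Nedd4 (a ubiquitin ligase), Ids (a lysosomal sulfatase), Sxl (the switch gene of sex determination) and PpV (a protein phosphatase). At kel the signal was 79.3 in replicate 1 and 38.6 in replicate 3. At PpV it was 57.9 and 49.5, and at crp 76.5 and 40.4. Each replicate's list has its own scale, so these values compare peaks within a list and not replicates. The Aldh-III peak ranked 2520 in replicate 1 and 12698 in replicate 3, and the Nedd4 peak (60.8 in replicate 1) had no counterpart in replicate 3. Of the 10, 5 held no forkhead match in the wider window.

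A minority of the peaks stood among the stronger peaks of both replicates. Of the 3317, 1397 (42.1%, exact 95% interval 40.4 to 43.8%) overlapped a peak among the 10000 highest of both replicate lists by at least 1 bp. Another 885 did so in replicate 1 only and 793 in replicate 3 only, and 242 (7.30%) in neither. The overlap with both was 98.0% for the 1649 reproducible distal peaks (the deposited reproducible list, which is the top of the pooled list, under the same position rule) and 3.18% for the 12492 lower-ranked distal peaks (ranks above 10000, to 30000). It was 44.8% for the 2590 middle-signal peaks within 1000 bp of a start site. Over all 30000 peaks of each replicate, 2929 (88.3%) overlapped both lists and none overlapped neither. The pooled list was made from the reads of both replicates, so this overlap is no independent test of the peaks. The intervals cover counting error only.

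Replicate 1 held 3164 of the peaks with signals from 18.6 to 329 (median 43.3), and replicate 3 held 3082 with signals from 14.1 to 361 (median 33.6). The median rank was 7261 in replicate 1 and 7274.5 in replicate 3, with 287 and 229 peaks ranked as high in their list as the reproducible peaks are in the pooled list. The deposited q-value was at most 0.05 for 2510 peaks in replicate 1 and 1868 in replicate 3. Across the 2929 matched peaks Spearman's rho between the replicate signals was 0.033 and Pearson's r on log2 signal 0.12, a description over peaks that share libraries and were chosen within a narrow range of the combined signal. The summits of the replicates lay a median of 55 bp apart (upper quartile 107 bp), and 1386 (47.3%) lay within 50 bp. In 56 of the matched peaks both replicate ranks fell in that top range. Of these 56, 55 lay within 500 bp of a reproducible summit, where 81 of the 2929 matched peaks did. Since the pooled rank chose the peaks and a match needs only 1 bp of overlap, the match at these 55 can be the neighbouring reproducible peak, and nothing is read from the count.

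**Figure D1:**
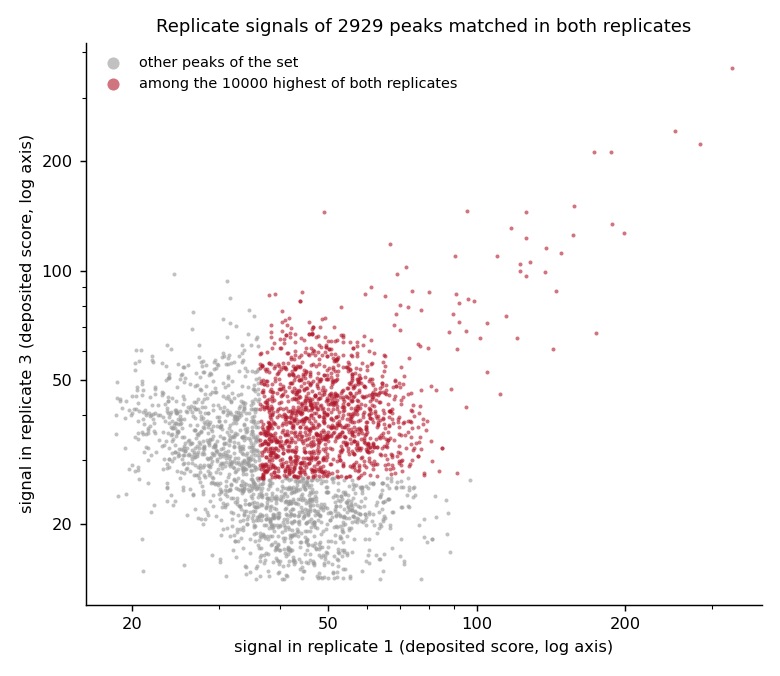
Signal of each of the 2929 matched peaks in replicate 1 (horizontal) and replicate 3 (vertical), both log axes, in the units of each deposited list. Red points, peaks among the 10000 highest of both lists, and grey points, the others, form 1 cloud with a Spearman rho of 0.033, and a sparse arm of points runs to 329 and 361.

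The peaks lay mostly inside genes. Introns held 2199 of the 3317 summits (66.3%, exact 95% interval 64.7 to 67.9%), where introns make up 52.9% of the sequence that meets the position rule. Intergenic sequence held 1025 (30.9%, against 41.0% of that sequence), 3′ untranslated regions 80 (2.41% against 5.62%) and 5′ untranslated regions 13 (0.392% against 0.503%). Each share other than that of 5′ untranslated regions differed from the sequence share in a two-sided exact binomial test, with Benjamini-Hochberg adjusted p of 1.9e-54, 7.7e-33 and 4.4e-19 for introns, intergenic sequence and 3′ untranslated regions and 0.460 for 5′ untranslated regions. The intron share was 5.26 percentage points (SE 1.38) below that of the reproducible distal peaks, where it was 71.6% (two-sided Fisher's exact test, adjusted p = 0.000301 over 9 comparisons of position and composition). It was 3.78 points (SE 0.928) above the 62.5% of the lower-ranked distal peaks (Fisher's exact adjusted p = 0.000135). The middle-signal peaks thus stood between the stronger and the weaker distal peaks.

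Distances from gene starts followed the same order. The nearest protein-coding start site lay a median of 4166 bp away (quartiles 2056 and 8839 bp), against 3881 bp for the reproducible and 4935 bp for the lower-ranked distal peaks. In all 702 summits (21.2%) lay over 10 kb from any start site, and the farthest 82313 bp. Relative to the nearest start site, 39.9% lay upstream. These distances are cut at 1000 bp by the rule and are given with no test.

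By chromosome arm, 3L held the highest density, with 826 summits (24.9%, against 21.6% of the sequence that meets the position rule), or 41.6 per Mb of that sequence. The arm 2L was also above its sequence share (646, 19.5% against 17.2%; adjusted exact binomial p = 0.00145), and 2R was below it (517, 15.6% against 18.5%; adjusted p = 2.6e-05). On X lay 553 summits (16.7% against 17.5%, adjusted exact binomial p = 0.193), and on 3R 758 (22.9% against 24.1%, adjusted p = 0.102). The small, largely heterochromatic chromosome 4 held 17 (0.513% against 0.960%), or 19.3 per Mb. The X share was 4.37 points (SE 1.19) below that of the reproducible distal peaks (21.0%; Fisher's exact adjusted p = 0.000301). Against the lower-ranked distal peaks (15.7%) and the middle-signal start-site peaks (17.5%) the differences were 0.974 points (SE 0.724) and −0.819 points (SE 0.988), with Fisher's exact adjusted p of 0.223 and 0.475.

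**Figure D2:**
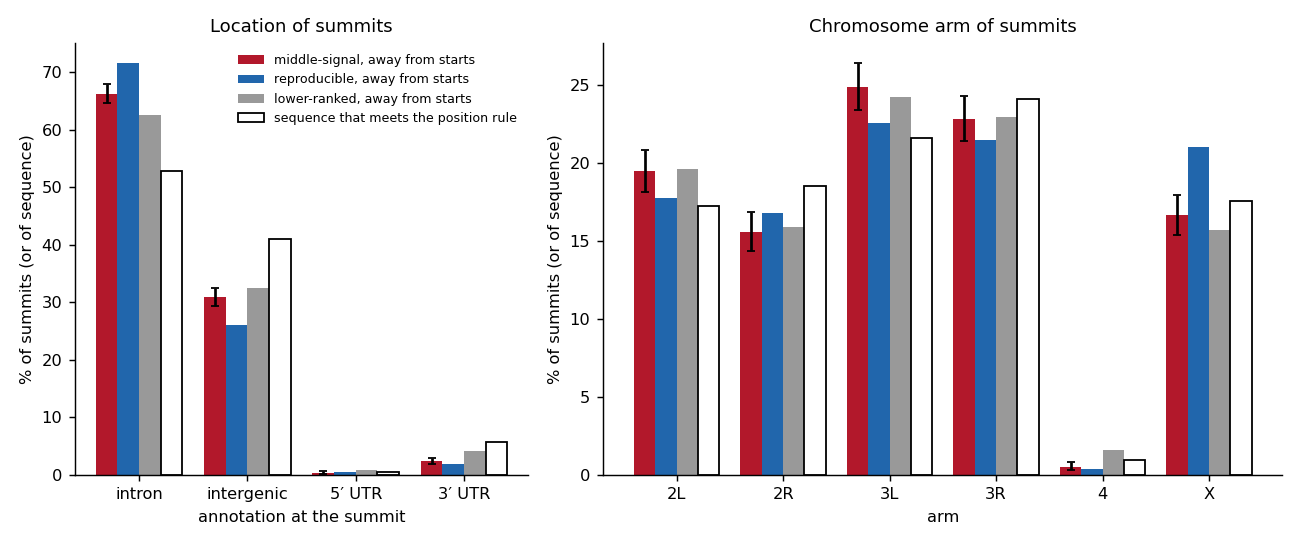
Shares of summits by annotation (left) and by chromosome arm (right) for the middle-signal distal peaks (red, with exact 95% intervals), the reproducible distal peaks (blue), the lower-ranked distal peaks (grey) and the sequence that meets the position rule (open bars). In introns the red bar stands at 66.3%, between 71.6% and 62.5%, and on X it stands at 16.7% beside 21.0% for the reproducible peaks.

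The peaks also lay near stronger peaks more often than weaker peaks did. A reproducible summit lay within 1000 bp of 377 peaks (11.4%, exact 95% interval 10.3 to 12.5%), against 6.29% of the lower-ranked distal peaks, a difference of 5.07 points (SE 0.592; Fisher's exact adjusted p = 8.6e-21). The set, the lower-ranked peaks and the reproducible summits were all cut from the same signal ranking. The difference is therefore a description and no independent test. Within 200 bp there were 25 and within 5000 bp 1474. Between neighbours of the set itself, 271 adjacent pairs lay within 1000 bp of each other and 9 within 200 bp. With intervals of 376 bp at 3288 of the peaks, neighbours within 200 bp have overlapping intervals and are not separate places.

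The sequence under the summits was poor in G and C. GC content of the window 100 bp to each side was 37.4% ± 7.30 (SD over 3317 peaks). In the windows centred 1000 bp to the left and to the right it was 40.6%. Those flanks were not held to the position rule, so some can lie in coding sequence or near start sites. The summit lay below the mean of its own flanks at 64.2% of the peaks. Windows under 35% GC made up 41.0% of the set, 57.8% of the reproducible distal peaks and 24.8% of the lower-ranked distal peaks. The differences were 16.8 points below (SE 1.49, adjusted p = 3.2e-28) and 16.2 points above (SE 0.937, adjusted p = 1.0e-70) in Fisher's exact test. In windows of 250 bp to each side the first difference was −2.04 points and did not pass (Fisher's exact adjusted p = 0.106). Middle-signal start-site peaks had 41.7%, and the difference was within its error (−0.659 points, SE 1.29, Fisher's exact adjusted p = 0.613). The dip was narrow: GC was 36.3% in the 50 bp left of the summit and 39.7% more than 100 and up to 150 bp to the left. Repeat-masked letters filled over 50% of the window at 132 peaks (3.98%).

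The forkhead element was more frequent at the summits than beside them. Of the 3317 windows, 1932 (58.2%, exact 95% interval 56.5 to 59.9%) held a match, against 46.0% of the left and 47.8% of the right flanks. The differences were 12.3 points (SE 1.2) and 10.5 points (SE 1.23), with exact McNemar p adjusted over 15 motifs of 9.5e-23 and 3.5e-16. These flanks were not held to the position rule, so some can lie in coding sequence or near start sites. With flanks under that rule the mean excess was smaller, at 8.88 points (larger exact McNemar adjusted p of both sides 1.2e-08). The strict word GTAAACA was in 255 windows (7.69%) and in 4.19% and 4.49% of the flanks (exact McNemar adjusted p = 1.1e-08 and 2.9e-07), or 1.77 times the mean flank share. AT-rich sequence holds this element more often by composition, so windows were also compared within strata of GC content 5 points wide. The difference was then 6.46 points for the element (Cochran-Mantel-Haenszel chi-square test, adjusted p = 6.5e-09) and 3.10 for the strict word (adjusted p = 6.5e-09). The stratified test takes summits and flanks as separate windows and does not use their pairing. The mean excess over both flanks without strata was 11.4 and 3.35 points, so the strata lowered the first and hardly moved the second.

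Several matches in 1 window were also more frequent. Windows with at least 2 matches made up 26.6% of the set (882 peaks), against 16.4% and 17.8% of the flanks, and 357 peaks (10.8%) held at least 3. Matches per 50-bp bin peaked at 29.0 per 100 peaks just left of the summit, and at 26.4 just right of it, with about 18.5 at the far left end of the profile. For the reproducible distal peaks the same bins held 34.2 and 33.5. By the share of windows with a match, the set did not differ detectably from the reproducible distal peaks (60.8%; −2.58 points, SE 1.48, Fisher's exact adjusted p = 0.258) or from the middle-signal start-site peaks (57.5%; 0.716 points, SE 1.29, adjusted p = 0.752). The first of these 2 depended on the setting. The difference from the reproducible distal peaks passed the threshold in windows of 50 bp to each side (−4.76 points, Fisher's exact adjusted p = 0.0138). With the replicate 1 list the comparator was its own 1666 distal peaks ranked as high as the reproducible peaks in the pooled list. These come from that replicate alone and are not the reproducible peaks. The difference from them also passed (−5.50 points, Fisher's exact adjusted p = 0.00342). Within GC strata the difference from the reproducible distal peaks, in the pooled list, was −0.083 points and did not pass. The lower-ranked distal peaks had 49.4%, 8.86 points fewer (SE 0.966, Fisher's exact adjusted p = 1.7e-18). Within GC strata the difference from the lower-ranked distal peaks was smaller, at 4.66 points, and still passed the threshold.

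By rank within the set the shares of windows with a match had overlapping intervals. The share was 59.8% in the 1106 highest-ranked peaks, 59.2% in the next 1106 and 55.7% in the last 1105, with exact 95% intervals of 56.8 to 62.7%, 56.3 to 62.1% and 52.8 to 58.7%. Intron peaks had 59.0% and intergenic peaks 55.7%. The 80 peaks in 3′ untranslated regions had a match in 59 windows (73.8%, exact 95% interval 62.7 to 83.0%), against 39.4% of their flanks. This interval lay above that of the intron peaks (56.9 to 61.1%), but many groups were viewed. The intervals are not adjusted for that, and the difference was not tested. In 5′ untranslated regions 4 of 13 windows had a match (30.8%, exact 95% interval 9.09 to 61.4%). On chromosome 4, 14 of 17 windows had one, and by arm the other shares ran from 54.6% on X to 60.4% on 2L. Among peaks in both top replicate lists the share was 59.5% (interval 56.9 to 62.1%), and among those in neither 52.5% (46.0 to 58.9%). Chosen from each replicate alone at the same ranks, it was 56.5% in replicate 1 (flanks 47.4%) and 56.7% in replicate 3 (flanks 46.7%).

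**Figure D3:**
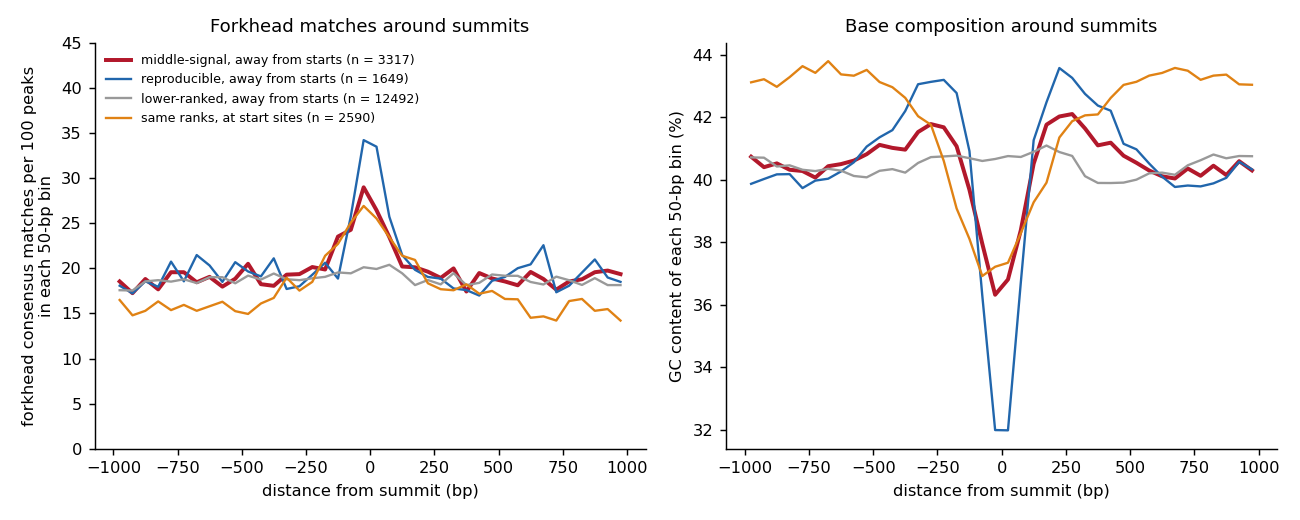
Forkhead matches per 100 peaks (left) and GC content (right) in 50-bp bins from 1000 bp left to 1000 bp right of the summit, for the 3317 middle-signal distal peaks (thick red), 1649 reproducible distal peaks (blue), 12492 lower-ranked distal peaks (grey) and 2590 middle-signal start-site peaks (orange). The red lines reach 29.0 matches per 100 peaks and 36.3% GC beside the summit, between the blue and the grey lines.

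Few of the other 13 element searches separated the set from its surroundings. The Mef2 site of the muscle factor Mef2 was in 9.92% of windows against 7.33% and 7.51% of the flanks (exact McNemar adjusted p = 0.00108 and 0.00273), but within GC strata the difference was 0.524 points (adjusted p = 0.727). The X-box, the site of the ciliary regulator Rfx, was in 17.9% of windows and in 17.4% and 18.8% of flanks. The differences were 0.513 points (SE 0.936) and −0.844 points (SE 0.958), with exact McNemar adjusted p of 0.700 and 0.659. Rfx is known to work with fd3F at cilium genes. The GATA word GATAAG (11.5% against 9.29% and 10.2%) and the E-box words CAGCTG and CAGGTG (11.7% against 14.3% and 13.3%) passed against the left flank (exact McNemar adjusted p = 0.0117 and 0.0087) and not the right (0.297 and 0.213). The GATA call depended on the library: with the replicate 1 list it passed against both flanks (exact McNemar adjusted p = 0.00237 and 0.023) and with the replicate 3 list against neither (0.222 and 1). The E-box words passed against neither flank with the replicate 1 list (exact McNemar adjusted p = 0.0621 and 0.0693), and the Mef2 site not against the left (0.0646). The core promoter elements DRE (TATCGATA) and M1BP (GGTCACAC) were in 18 (0.543%) and 17 (0.513%) windows. At the middle-signal start-site peaks they were in 4.83% and 3.13% (Fisher's exact adjusted p = 8.4e-27 and 1.7e-14). The homeodomain word TAATTA was in 16.5%, against 20.3% of the reproducible distal peaks (−3.79 points, Fisher's exact adjusted p = 0.0161), a difference of −0.675 points within GC strata (adjusted p = 0.853). With the replicate 1 list, set against its own 1666 top-ranked distal peaks, no homeodomain call was made (−2.91 points, Fisher's exact adjusted p = 0.0539).

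The remaining searches made no call against the flanks in the pooled list. GAGAG of the GAGA factor was in 20.4% of windows (flanks 22.3% and 21.4%), TGANTCA of AP-1 in 5.37%, AGGTCA of nuclear receptors in 4.70%, GTGGGAA of Su(H) in 2.38%, AACCNGTT of grainyhead in 2.14% and CAGGTAG of Zelda in 0.874%. None of these 6 passed against either flank (exact McNemar adjusted p of 0.110 or more). With the replicate 1 list GAGAG was below both flanks (exact McNemar adjusted p = 0.0216 and 0.0171), and with the replicate 3 list it passed against neither. All words were read on both strands. The Zelda word shares its first 5 letters with the E-box word CAGGTG, and neither contains the other.

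**Figure D4:**
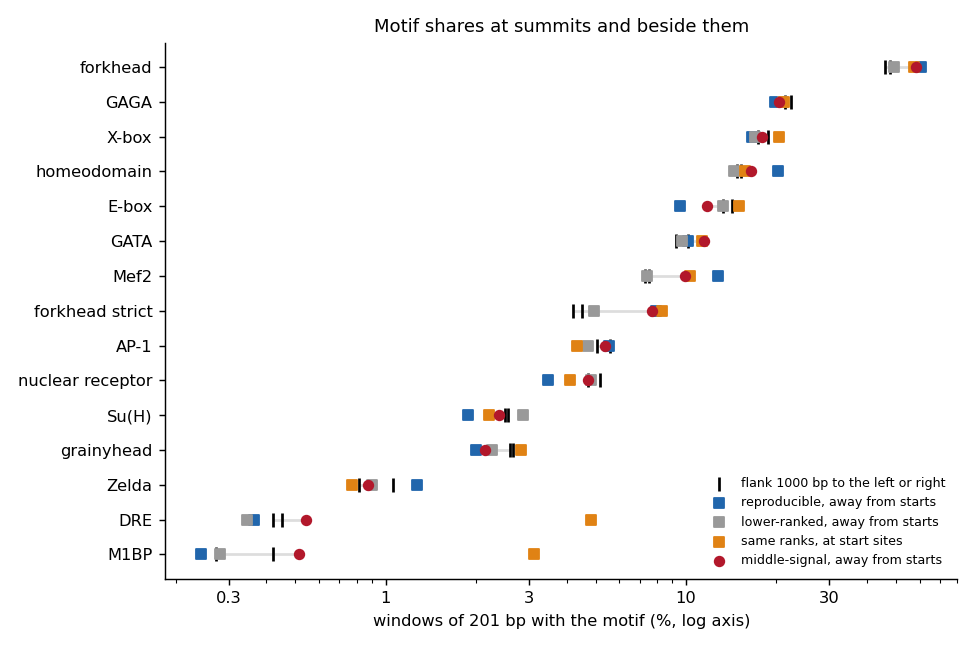
Share of windows (100 bp to each side of the summit) with each of 15 motifs (log axis, %) at middle-signal distal summits (red circles), in their left and right flanks (black ticks), and at the reproducible distal (blue), lower-ranked distal (grey) and middle-signal start-site summits (orange squares). The forkhead rows stand right of their ticks at 58.2% and 7.69%, and the DRE and M1BP rows stand far left of the start-site squares at 4.83% and 3.13%.

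A scan over all 6-letter words, both strands joined, placed the forkhead words among a larger group. Against both flanks, 212 words (10.2% of those tested) were more frequent at the summits and 258 (12.4%) less frequent at an adjusted p of at most 0.05 on each side. These counts moved with the setting: 117 and 115 words with the replicate 1 list, 177 and 164 with the replicate 3 list, and 124 and 74 with flanks under the position rule. Of the 12 words inside the forkhead element, 8 were higher and 0 lower. Over GC strata 93 words (4.47%) were higher and 62 (2.98%) lower, with 6 of the 12 forkhead words higher. The higher words had a median of 1 G or C letter and the lower words 4, and over GC strata both had 3. Against the reproducible distal peaks, 203 words were higher and 138 lower in Fisher's exact test, but only 1 and 8 over GC strata. Of the 12 forkhead words, 0 were higher and 4 lower in that Fisher's exact test, and 0 were called over GC strata. Among the 8 lower words was ACAGTG, in 13.1% of the set and 19.5% of the reproducible distal peaks. Its difference over GC strata was −6.58 points.

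None of the 10 words with the highest ratio of summit to flank share was a forkhead word. The forkhead word TAAATA had a lower ratio (1.42) but was in 42.5% of summit windows. It was in 29.2% of the left and 30.8% of the right flanks (exact McNemar adjusted p = 7.3e-27 and 1.4e-20). Over GC strata its difference from the flanks was 5.76 points. TAAATA holds only A and T, and other such words also rose. AAATAT, not a forkhead word, was in 47.4% of summit windows and 33.0% and 35.1% of the flanks. Its difference over GC strata was 5.93 points. Of the 36 words of A and T only, 30 were higher than both flanks and 9 over GC strata. By the ratio of summit to flank share, the highest was AGTGTA (14.6% of summit windows against 7.85%), followed by CTATAG (3.35% against 1.84%), CACTGA (14.5% against 8.11%), GTACAC (8.80% against 4.99%), AGGGTA (7.33% against 4.33%), ACACTG (12.6% against 7.46%), GGTACA (6.48% against 3.83%), GTGCAC (6.75% against 4.01%), ATACCC (10.04% against 5.97%) and CAGTGC (14.1% against 8.44%). Those of lowest ratio were CGGGAC (1.09% against 2.46%), AGGACC (1.36% against 2.91%), CCGGTC (1.03% against 2.10%), CTCCTC (4.10% against 8.15%) and CGAGGA (3.04% against 6.04%). Of the 10 highest, 4 hold CAGTG or at least 4 of its letters in a row. This core was picked after the scan was seen, so its values are a description with no test. CAGTG was in 1313 windows (39.6%, exact 95% interval 37.9 to 41.3%), against 27.8% of the left and 27.7% of the right flanks. The share was 45.7% in the reproducible distal, 32.4% in the lower-ranked distal and 37.9% in the middle-signal start-site peaks, and 37.5% and 39.5% at the same ranks of replicates 1 and 3.

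A longer form of the core, also picked after the scan was seen, had a higher ratio to the flanks. Its values are likewise a description with no test. TCTCAGTG was in 130 windows (3.92%, exact 95% interval 3.28 to 4.64%) and in 37 of 6634 flank windows (0.558%), a 7.03-fold ratio. With C as the next letter (TCTCAGTGC) the ratio was 9.33, from 70 windows and 15 flanks. This was the highest among the scored forms with an added letter. The others had 7.08 (T next), 8.75 (T before the word) and 6.75 (C before the word). The 8-letter word TCTCAGTG was in 4.12% of the reproducible distal, 1.53% of the lower-ranked distal and 1.39% of the middle-signal start-site peaks. In the replicate lists it was in 3.10% (replicate 1) and 3.76% (replicate 3), against 0.649% and 0.683% of their flanks. The first 5 peaks by rank that hold the word, leaving out 1 chromosome arm, are shown because they let the letters around it be read. They are 40 bases each, written on the strand on which the word reads TCTCAGTG (in capitals), with dm6 positions.
near CG5397, rank 4005, plus strand (chr2L:1230936-1230975): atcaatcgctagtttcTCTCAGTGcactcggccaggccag
drongo intron, rank 4006, plus strand (chr2L:846412-846451): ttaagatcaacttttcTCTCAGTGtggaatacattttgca
near CG6118, rank 4014, minus strand (chr3R:15418845-15418884): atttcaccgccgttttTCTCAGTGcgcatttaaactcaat
near CG13676, rank 4049, plus strand (chr3L:8153438-8153477): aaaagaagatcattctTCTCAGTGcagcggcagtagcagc
CG42750 intron, rank 4062, minus strand (chr2L:18267913-18267952): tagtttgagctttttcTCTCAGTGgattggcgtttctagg

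The 133 occurrences of TCTCAGTG at the summits were preceded by a run of T. The letters 2, 3 and 4 bases before the word were T in 81.2%, 82.7% and 78.9%, and the letter just before it was T in 53.4% and C in 41.4%. The next letter was C in 52.6% and T in 36.1%, and the letter after that was A in 58.6%. At each other position in the 40 bases no letter reached 50%. The word lay within 50 bp of the summit in 63 of the 133 (47.4%), so it was not gathered at the summit centre within the window. Soft-masked (repeat-annotated) sequence held 58.6% of the 133, against 27.2% of the 4330 occurrences on all 6 arms and 20.1% of the arm sequence. The part of repeats in this word was not tested. A forkhead match lay in 67 of the 130 windows with the word (51.5%), and in 57.8% of windows with CAGTG against 58.5% of windows without it. The forkhead share thus differed little with and without the core. No factor is assigned to the word here.

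The peaks were spread over many genes, with most genes holding none. Counting a peak for every protein-coding gene whose span holds its summit, and otherwise for the gene of the nearest start site, 1647 of 13945 genes (11.8%) had at least 1. Of these, 936 had 1 peak, 133 at least 5 and 15 at least 10. Genes with a peak were long, with a median span of 13.1 kb against 1.97 kb for those without. Among the 2789 longest genes the share was 39.0%, against 3.94 to 7.53% in the 4 other length classes of 2789 genes each. Every count over a gene list is therefore given beside the share of all genes in the same length classes.

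The genes with the most peaks were Eip75B with 22 (an ecdysone-induced nuclear receptor), bun with 21 (a TSC22-family growth regulator) and kirre with 19 (an immunoglobulin-domain protein of myoblast fusion). CG43245, Glut4EF and CG6163 had 14 each, CG46467 (which overlaps Glut4EF), fz2 (a Wingless receptor) and plh 12 each, and chinmo (a timing factor of neurons) 11. The 22 peaks of Eip75B, a gene of 113.7 kb on 3L (17950953 to 18064696, FBgn0000568), had signals from 57.1 to 101.4 with a median of 67.7. Of them, 20 lay in its introns, 12 held a forkhead match and 7 were among the 10000 highest of both replicates. In bun (91.1 kb on 2L, FBgn0259176) the 21 peaks had signals from 55.6 to 97.3, with a forkhead match in 13, and 10 were in both top lists. In kirre, which spans 394 kb, 9 of 19 had a match. CG43245 (1.48 kb) and CG6163 (2.90 kb) are small, and all of their peaks lay in the intergenic stretches around them, over 51.3 and 28.9 kb. At fz2, 9 of 12 peaks had a forkhead match but 3 were in both top lists. These genes were picked by their counts, so their values are a description.

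Lists of chordotonal and cilium genes, which include genes known to lie downstream of fd3F, were counted next. Of 6 chordotonal transduction genes 2 had a peak (33.3%): eys (2 peaks, best rank 6962), which encodes an extracellular matrix protein around the sensory cilium, and nompC (1, rank 9322), which encodes a mechanosensory channel. Among all genes of the same length classes the share was 28.5%. None of 12 axonemal dynein and assembly genes had one, where genes of the same length classes have one in 19.2%. Of 19 intraflagellar transport and BBSome genes 2 had one, BBS8 and BBS4, or 10.5% against 11.3%. fd3F itself (X, 3802316 to 3811040) had 0, and the nearest peak of the set (rank 5895, signal 82.0, nearest gene Tlk) lay 24896 bp from it. Among 18 sensory lineage regulators, 5 had a peak (27.8% against 23.7%), with 4 in introns of ct, a homeodomain gene of external sensory organs, and 2 each at ham and nub. With so few genes in each list, the shares are loose. The set leaves out peaks near start sites and the reproducible peaks, so a count of 0 does not mean a gene without peaks. Reproducible distal peaks were counted at 2 chordotonal transduction genes, 1 axonemal dynein and assembly gene and 2 intraflagellar transport and BBSome genes. Within fd3F the best pooled peak had rank 18883.

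The 6 lists with a share more than 15 points above that of genes of like length are given first, an order made after the values were seen. Of 14 ecdysone response genes 10 had a peak (71.4%, against 36.8% of genes of the same length classes), with 22 at Eip75B, 9 at EcR (the ecdysone receptor) and 7 at Eip74EF. Of 17 forkhead family genes 8 had one (47.1% against 17.1%): foxo, the insulin-regulated factor, had 4, fkh, which patterns gut and salivary gland, 3, and CHES-1-like 2. Of 24 segmentation and Hox genes 12 had one (50% against 23.8%), with 8 around the pair-rule gene hry and 2 each at Dfd and Antp. Of 21 Notch and EGFR pathway genes 10 had one (47.6% against 29.5%), with 9 at the Notch coactivator mam, 8 at the ETS factor gene pnt and 3 at Egfr. Axon guidance and neuronal adhesion genes had 18 of 34 (52.9% against 37.2%), led by kirre with 19, caps with 9 and Ten-a with 8. This list includes kirre, given above as a protein of myoblast fusion, so it is not purely neuronal. Circadian and stress regulators had 8 of 19 (42.1% against 26.5%), with 10 at Pdp1 and 4 each at foxo and Atf3. The counts carry no test, and the length classes match gene length only coarsely among the longest genes. Peaks between genes went to the nearest start site, and the classes do not match the amount of sequence around a gene. None of the 8 peaks of hry and the 3 of fkh lay in an intron, where 3 of the 4 at foxo did.

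The other lists lay closer to the share of genes of like length, or below it. Muscle genes had 7 of 21 (33.3% against 26.3%), with 6 in introns of Mef2, the myogenic factor, and 4 each at Msp300 and Tm1. Ion channel and synapse genes had 13 of 30 (43.3% against 36.9%), with 5 at the potassium channel gene Sh and 3 each at KCNQ and fne. Glial genes had 3 of 12 (25% against 25.6%; pnt, loco and Gs2), and midgut and Malpighian genes 3 of 8 (37.5% against 26.8%; GATAe, lab and cad). Trachea and epidermis genes had 4 of 13 (30.8% against 31.7%), with 3 around vvl and 1 each at trh and crb. Hemocyte and fat body genes had 2 of 14 (14.3% against 25%), with 7 of the 8 peaks in ush and 1 near srp. Chromatin regulators had 5 of 20 (25% against 29.3%), with 9 at psq, 5 at trx and 4 near Su(z)2, and 0 of 23 cytoplasmic ribosomal protein genes had one (background 4.58%). Cell types in whole embryos cannot be told apart.

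**Figure D5:**
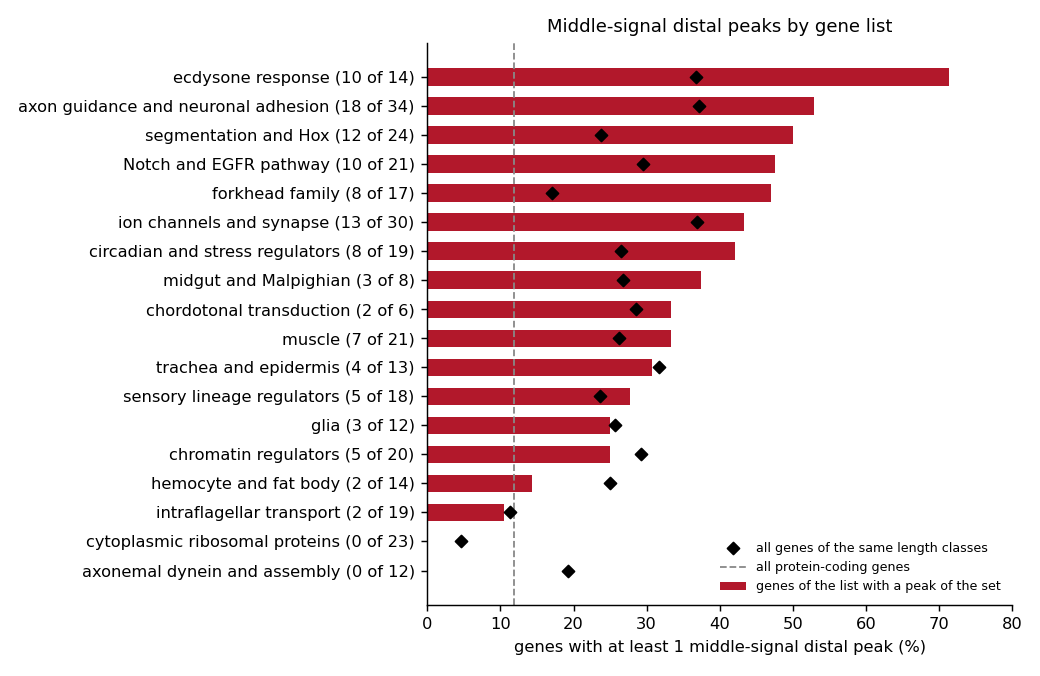
Percentage of genes in each of 18 lists that have at least 1 middle-signal distal peak (red bars, counts in the labels), the share of all genes of the same length classes (black diamonds) and of all protein-coding genes (dashed line, 11.8%). The ecdysone bar at 71.4% and the forkhead family bar at 47.1% stand farthest right of their diamonds, and the axonemal dynein and ribosomal protein rows are at 0.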

How the data were processed

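The peak lists were used as deposited, in dm6 coordinates per the labels: 1 list of 30000 peaks per replicate, 1 pooled list and the reproducible peaks, which equal the top of the pooled list. The score (signal value) and the −log10 q-value of each peak were made by the authors. The caller, aligner and threshold of reproducibility: not given in the sources used here. A control experiment named in the labels was not analysed here. Depth is unknown.

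Peaks were ranked by signal and annotated with Ensembl 115 (FlyBase 6.54) and the Release 6 sequence, whose arm ends hold every peak. The rule, the lists of genes and motifs and the tests were chosen with earlier results of these data known. Motifs were scored within 100 bp of the summit and in windows centred 1000 bp to each side (exact McNemar test). The flank windows were not held to the position rule unless stated. Sets of peaks were compared by Fisher's exact test, and composition by Cochran-Mantel-Haenszel tests over GC strata. All tests were two-sided with Benjamini-Hochberg adjustment, over 15 motifs, all 6-letter words or 9 position tests, and for the binomial tests over the annotation classes or the arms. Peaks are the units, so p-values describe these peaks and not variation between embryo collections. The replicates are labelled as separate biosamples, and values are given per replicate where a list allows. The word scan was tested on simulated data. Named are the 10 peaks of highest signal, the 3 just inside and outside each end, the 5 with most forkhead matches, the 10 genes with most peaks, 3 genes per list, fd3F, and the 10 and 5 words of highest and lowest ratio. Python 3.11.15, numpy 2.4.6, pandas 2.3.3 and scipy 1.17.1 were used.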

Additional observations from a re-analysis of the deposited data

How the results depend on the processing

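Across the other settings the forkhead excess over the flanks, the intron, X and AT-rich differences from the reproducible distal peaks and the clustering near reproducible summits kept their direction and stayed on their side of the threshold, with the exceptions here. In windows of 50 bp to each side the forkhead share minus that of the reproducible distal peaks was −4.76 points, past the threshold (adjusted Fisher's exact p = 0.0138). With a replicate list in place of the pooled list, its own distal peaks of the same ranks stood in for the reproducible distal peaks. Those peaks come from that replicate alone. The forkhead difference was then −5.50 points in replicate 1 (1666 such peaks, Fisher's exact adjusted p = 0.00342). In replicate 3 (1595 such peaks) it was −1.64 points. Within GC strata the forkhead difference from the reproducible distal peaks, in the pooled list, was −0.083 points. In windows of 250 bp to each side the AT-rich difference was −2.04 points (Fisher's exact adjusted p = 0.106). Words higher than in both flanks ranged from 117 to 177 over the replicate lists and numbered 124 with flanks under the position rule and 93 over GC strata. Words lower ranged from 115 to 164 and numbered 135 with start sites excluded to 2000 bp, 74 with flanks under the position rule and 62 over GC strata. The overlap with both replicate lists was 37.2% with an overlap of 50% of both intervals, 31.0% with summits within 100 bp and 88.3% over all 30000 peaks. The causes were not tested. The GC strata for words, the words against other peaks, and CAGTG with its longer forms were added after seeing the data. No paired contrast between conditions was possible because the study has 1 group. Pairing was used only between a summit and its own flanks. No alternative reversed a result. Depth is unknown, so whether missing peaks in a replicate reflect depth was not tested.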
